A study of Mus musculus with 92 samples.

Results

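The STAG1 binding sites of d4c7PGCLC, mouse primordial germ cell-like cells that were induced from stem cells and then expanded in culture, were set against those of ESC, the naive embryonic stem cells of the same line. A site was an interval of merged peaks overlapped by both STAG1 peak lists of a cell type. It was shared if it overlapped a site of the other cell type, and specific if it overlapped no peak of either list of the other. Of 35110 STAG1 sites in d4c7PGCLC, 25878 were shared with ESC and 3668 (10.4%) were d4c7PGCLC-specific. Of 27946 STAG1 sites in ESC, 25837 were shared and 869 (3.11%) were ESC-specific. The remaining 5564 sites of d4c7PGCLC and 1240 of ESC overlapped a peak of the other cell type but no site.

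The series holds 92 ChIP-seq samples, and 30 peak lists were used or examined here. All d4c7PGCLC, d2PGCLC, EpiLC and ESC libraries used were wild type and came from the line BDF1-2-1, which carries the reporters Blimp1-mVenus and Stella-ECFP and is called BVSC. The d4c7PGCLC and d2PGCLC were sorted for the Blimp1-mVenus reporter, while EpiLC, the epiblast-like cells between the stem cell and germ cell stages, and ESC were harvested unsorted. GSC, cultured germline stem cells, came from another line that carries Acrosin-EGFP and beta-Actin-EGFP, called AAG, and were sorted for that reporter. Wild-type GSC gave STAG1, STAG2 and STAG3 lists. CTCF lists came only from mutant GSC, 1 each from the double knockouts of Stag1 and Stag2, of Stag1 and Stag3 and of Stag2 and Stag3, and from the Stag3 knockout. The CTCF sites used here are thus those of cohesin mutants of another cell type and line. STAG1 had 2 lists and STAG2 2 or 3 lists per cell type, and STAG3 had 3 lists in GSC. Separate cultures are not named for the replicates. The spread between lists, which is all that a p-value measures here, may thus be technical. Peak lists hold no measure of expression, so the cell types could not be checked by their marker genes.

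STAG1 and STAG2 are alternative subunits of cohesin, the ring complex that extrudes chromatin loops and holds sister chromatids together, and STAG3 is the form best known from meiosis. Extruding cohesin is halted at DNA-bound CTCF, so that cohesin peaks mostly lie at CTCF sites. STAG1 cohesin is known to be the more stably bound form at CTCF sites, while STAG2 cohesin is also found away from them.

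The promoters below show DNA at STAG1 sites of either class, in the windows for which sequence was given. Rpl5, Rpl26 and Rps4x encode ribosomal proteins and had d4c7PGCLC-specific sites in their promoters, as did Aqr, a helicase gene of the spliceosome, whose peaks ranked higher. Sult2b1, a sterol sulfotransferase gene, and Ezh1, a histone methyltransferase gene of Polycomb, had ESC-specific sites. Capitals mark matches to AGGNGGC, the inner letters of the CTCF motif, on either strand, and a promoter without capitals has no such letters in its window. The windows run from 250 bases before the transcription start to 50 after it, in GRCm38.p6 from RefSeq, and are written along the gene. Their positions are chr5:107900278-107900577 on the plus strand for Rpl5, chr11:68901316-68901615 on the plus strand for Rpl26, chrX:102189342-102189641 on the minus strand for Rps4x and chr2:114175290-114175589 on the minus strand for Aqr. They are chr7:45742429-45742728 on the minus strand for Sult2b1 and chr11:101226414-101226713 on the minus strand for Ezh1.
Rpl5: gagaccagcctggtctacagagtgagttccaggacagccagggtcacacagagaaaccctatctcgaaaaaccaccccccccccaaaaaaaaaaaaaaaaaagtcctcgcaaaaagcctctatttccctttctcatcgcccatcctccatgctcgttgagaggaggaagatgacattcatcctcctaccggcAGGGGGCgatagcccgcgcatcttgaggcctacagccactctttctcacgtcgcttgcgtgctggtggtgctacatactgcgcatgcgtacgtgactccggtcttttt
Rpl26: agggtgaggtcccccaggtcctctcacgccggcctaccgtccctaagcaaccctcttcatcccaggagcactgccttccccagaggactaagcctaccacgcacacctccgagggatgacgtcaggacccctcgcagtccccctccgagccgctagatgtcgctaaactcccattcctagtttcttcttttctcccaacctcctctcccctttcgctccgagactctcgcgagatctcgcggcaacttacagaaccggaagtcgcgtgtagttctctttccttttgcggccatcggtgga
Rps4x: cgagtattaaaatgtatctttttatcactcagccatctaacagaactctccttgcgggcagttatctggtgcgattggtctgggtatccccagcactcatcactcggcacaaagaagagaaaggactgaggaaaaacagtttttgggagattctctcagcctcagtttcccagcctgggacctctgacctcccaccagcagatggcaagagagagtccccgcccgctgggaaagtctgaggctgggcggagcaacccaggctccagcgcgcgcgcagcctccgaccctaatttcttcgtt
Aqr: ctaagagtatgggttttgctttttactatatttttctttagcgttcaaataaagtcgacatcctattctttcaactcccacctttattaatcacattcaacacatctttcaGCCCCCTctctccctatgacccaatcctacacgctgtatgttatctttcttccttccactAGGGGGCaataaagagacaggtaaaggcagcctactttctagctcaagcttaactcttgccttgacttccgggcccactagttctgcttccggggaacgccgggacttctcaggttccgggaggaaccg
Sult2b1: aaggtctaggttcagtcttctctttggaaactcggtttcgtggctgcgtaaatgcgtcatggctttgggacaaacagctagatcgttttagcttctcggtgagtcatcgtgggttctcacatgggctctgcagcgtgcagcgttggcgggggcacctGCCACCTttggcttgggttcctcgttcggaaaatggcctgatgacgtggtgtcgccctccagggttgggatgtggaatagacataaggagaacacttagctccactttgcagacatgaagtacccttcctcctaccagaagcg
Ezh1: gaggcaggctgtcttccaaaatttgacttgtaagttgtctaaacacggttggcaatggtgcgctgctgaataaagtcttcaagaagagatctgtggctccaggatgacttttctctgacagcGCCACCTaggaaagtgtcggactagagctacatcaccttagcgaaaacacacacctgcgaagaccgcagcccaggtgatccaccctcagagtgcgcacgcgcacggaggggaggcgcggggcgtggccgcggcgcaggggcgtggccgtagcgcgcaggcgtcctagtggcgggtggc

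At the Aqr promoter, the peak summits of the 2 d4c7PGCLC lists lay 12 and 22 bases from the nearer of the matches, and at Rpl5 96 and 53 bases from the only one. At Sult2b1 the ESC summits lay 31 and 34 bases from the match, and at Ezh1 46 and 73 bases. The Aqr, Rpl5, Rpl26 and Rps4x sites all overlapped CTCF sites called in the 4 GSC genotypes. The windows of Rpl26 and Rps4x hold no match to AGGNGGC. That of Rps4x does hold AGATGGCA, all but the last letter of AGATGGCAG, which is among the longer CTCF letters counted below. The match at Sult2b1 lies in a full AGGTGGCAG on the other strand, which is also among those letters. The Sult2b1 site overlapped no CTCF peak, and the Ezh1 site overlapped CTCF peaks in 2 genotypes. Pcnt, not printed, had d4c7PGCLC-specific peaks that ranked above those at Aqr by the worse of the 2 ranks. Its site lay at a CTCF site of all 4 genotypes, and its window holds no match. Nor do the unprinted windows of Gm2716 and Ahrr, with specific sites, and of Scnn1g and 2310015A10Rik, with shared sites. Those of Cnep1r1, 9330182O14Rik and Trp53i11 hold one, at 68 and 81, 287 and 285, and 26 and 10 bases from the summits.

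Over all 32817 distinct promoter windows, 29.3% held AGGNGGC on either strand. The share was 49.8% of the 209 windows at d4c7PGCLC-specific sites, 46.2% of the 39 at ESC-specific sites and 52.1% of the 1328 at shared sites. Promoters of all 3 classes were richer in GC than promoters as a whole, with a median of 61.3% GC at d4c7PGCLC-specific, 61.7% at ESC-specific and 60.0% at shared sites, against 52.7% over all windows. Any of the longer CTCF letters AGGGGGCGC, AGGGGGCAG, AGGTGGCAG or AGATGGCAG, which overlap AGGNGGC except for the last of them, stood in 9.57% of the windows at d4c7PGCLC-specific sites, in 7.69% at ESC-specific and in 17.8% at shared sites, against 3.65% of all windows. These shares are descriptions without a test.

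The d4c7PGCLC STAG1 lists held 38491 and 42013 peaks and the ESC lists 39055 and 29222. The excess of d4c7PGCLC-specific sites followed these lengths. With each list reduced to its 29222 peaks of highest fold enrichment, 1837 sites were d4c7PGCLC-specific (7.10% of 25862) and 1725 ESC-specific (6.81% of 25322). Leaving out the short ESC list, replicate 2, gave 4019 d4c7PGCLC-specific and 4437 ESC-specific sites, while leaving out ESC replicate 1 gave 8885 and 1450. Leaving out d4c7PGCLC replicate 1 gave 7952 and 1242, and leaving out replicate 2 gave 5797 and 1740. Of the 5564 d4c7PGCLC sites that met an ESC peak but no ESC site, 5214 had a peak in ESC replicate 1 and 355 in ESC replicate 2. The 2 classes can therefore be described by their places and by other readouts, but their relative size cannot be told apart from list length.

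**Figure D1:**
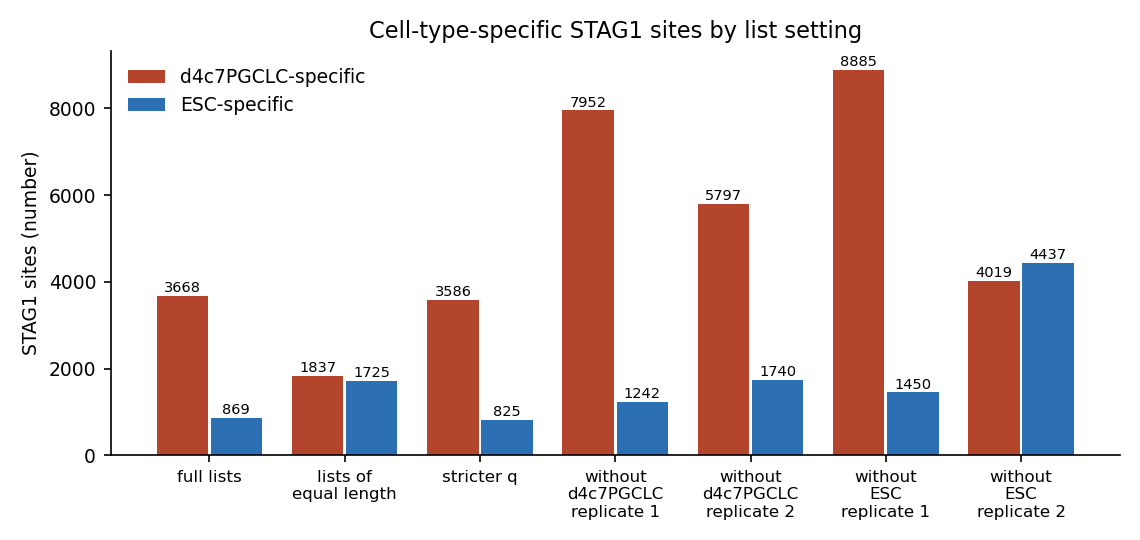
Number of d4c7PGCLC-specific (red) and ESC-specific (blue) STAG1 sites with the full lists and under other settings of the lists, which stand along the horizontal axis. The 3668 against 869 sites of the full lists come to 1837 against 1725 with lists of equal length.

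Specific peaks were weak in their own lists in both cell types. Their median fold enrichment over the control, the authors' value for each peak, was 5.35 and 5.45 in the d4c7PGCLC lists for d4c7PGCLC-specific sites and 5.99 and 4.92 in the ESC lists for ESC-specific sites. Shared peaks had medians of 12.3 and 13.4 in d4c7PGCLC and of 13 and 8.50 in ESC. Of the top 10% of each list by fold enrichment, 0 and 0 peaks were specific in d4c7PGCLC and 1 and 0 in ESC. The best placed d4c7PGCLC-specific peaks ranked 7769 and 4820 in their lists, and the best placed ESC-specific peaks 2870 and 4089. Fold enrichment comes from the same lists that chose the classes, so these values carry no test. A site with no peak in the other cell type is one where none was called, and the sequencing depth behind the lists is not given.

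**Figure D2:**
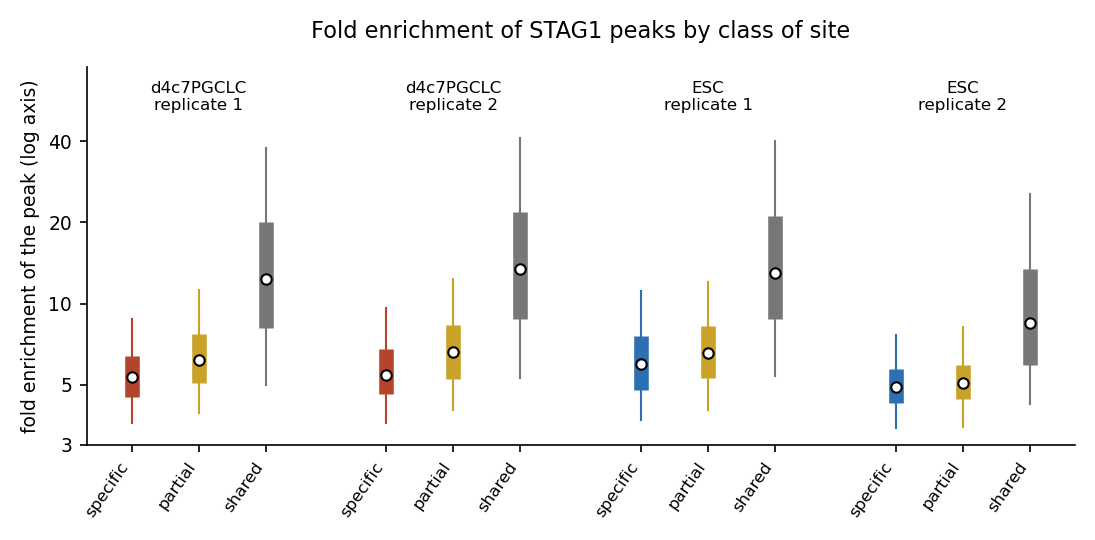
Fold enrichment of STAG1 peaks (log axis) in each of the 2 d4c7PGCLC and 2 ESC lists, at specific sites, at partial sites (a peak but no site in the other cell type) and at shared sites. White points are medians, thick bars the middle 50% and thin lines the 5th to 95th percentile of peaks, and in each list the median of specific peaks lies below that of shared ones.

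The strongest shared sites show the upper end of the scale. A site near Chst8, a carbohydrate sulfotransferase gene, at chr7:34671672-34672476, had folds of 98.8 and 105 in d4c7PGCLC and 99.2 and 65.2 in ESC. A site near Hif1an, which encodes an oxygen-dependent inhibitor of HIF, at chr19:44582604-44583245, had 84.1 and 93.4 in d4c7PGCLC and 126 and 73.3 in ESC. Both lay at CTCF sites of all 4 GSC genotypes and had STAG2 peaks in all 13 STAG2 lists of the 5 cell types.

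Among d4c7PGCLC-specific sites, the best ranked lay at chr1:100887220-100887748, between genes and nearest to Cntnap5b, a neural adhesion gene 396621 bases away, with folds of 18 and 21.4. The next was at chr5:121081832-121082375, nearest to Ptpn11, which encodes the phosphatase SHP2 of receptor signalling, with folds of 16.9 and 25.5. A site at the end of Dlat, a gene of the pyruvate dehydrogenase complex, at chr9:50633032-50633532, had 15.7 and 19.9. The others of the 8 best ranked lay near Pole4, a gene of a DNA polymerase, at chr6:82677633-82678031, near Plcl2 at chr17:50418953-50419484, in Trerf1 at chr17:47267912-47268374, in Pias1, a SUMO ligase gene, at chr9:62972493-62972935, and near the receptor gene Gpr83 at chr9:14854604-14854962. Their folds ran from 13.9 to 14.8 in replicate 1 and from 15.4 to 19.1 in replicate 2. All 8 had STAG2 peaks in both EpiLC lists, 7 had STAG2 in both ESC lists and 7 in all 3 d4c7PGCLC lists. Only those near Ptpn11 and in Trerf1 had a STAG2 peak in GSC. These 2, Dlat and Plcl2 lay at CTCF sites. Outside CTCF sites the next was near Cfap299, a gene of spermatogenesis, at chr5:98310569-98310975, with 12.4 and 15.4.

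Among ESC-specific sites, the best ranked lay in Itprid1 at chr6:55812320-55812807, with folds of 21.2 and 13.3, and near Tmem17, a cilium gene, at chr11:22539943-22540495, with 21.4 and 13.1. A site near Chmp2b, a gene of the ESCRT membrane-remodelling complex, at chr16:65631824-65632247, had 18.8 and 13.3. The other 5 lay in Pdgfrl at chr8:40929880-40930242, in Smc5, a gene of the cohesin-related SMC5/6 complex, at chr19:23224897-23225527, and in Mag, a myelin gene, at chr7:30904092-30904493. They also lay near the kinase gene Sik1 at chr17:31763159-31763674 and near Insig1, a regulator of cholesterol synthesis, at chr5:28092418-28092886. All 8 had STAG2 peaks in both ESC lists, 0 had them in all 3 d4c7PGCLC lists, 5 had none in d4c7PGCLC and 0 had any in GSC. Smc5, Mag and Insig1 lay at CTCF sites.

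STAG1 sites that differed between the cell types lay at CTCF less often than shared ones. Peaks at specific sites were also weaker, as given above, and the shares were not matched for fold enrichment. CTCF sites were called in all 4 mutant GSC genotypes at 36623 places, and no CTCF list of d4c7PGCLC, ESC or wild-type GSC was analysed here. Of d4c7PGCLC-specific sites 41.0% lay at one (exact binomial 95% interval 39.4 to 42.6), and of ESC-specific sites 34.2% (31.0 to 37.4), against 84.8% of shared sites. Sites that met a peak but no site of the other cell type came between, with 60.7% in d4c7PGCLC and 52.6% in ESC. The intervals cover counting error only, since sites of the same lists are not replicates. The order of specific and shared classes was the same with each STAG1 list left out. The order of the 2 specific classes turned with either d4c7PGCLC list left out, at 32.1% of d4c7PGCLC-specific against 38.7% of ESC-specific sites without replicate 1 and 33.3% against 44.3% without replicate 2. Over whole lists, 72.2% and 69.2% of STAG1 peaks lay at CTCF sites in d4c7PGCLC, against 71.2% and 80.0% in ESC. That difference of −4.85 points could not have passed (two-sided exact permutation p = 0.667, adjusted 1.00, smallest possible 0.333), and was 1.40 points with lists of equal length.

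**Figure D3:**
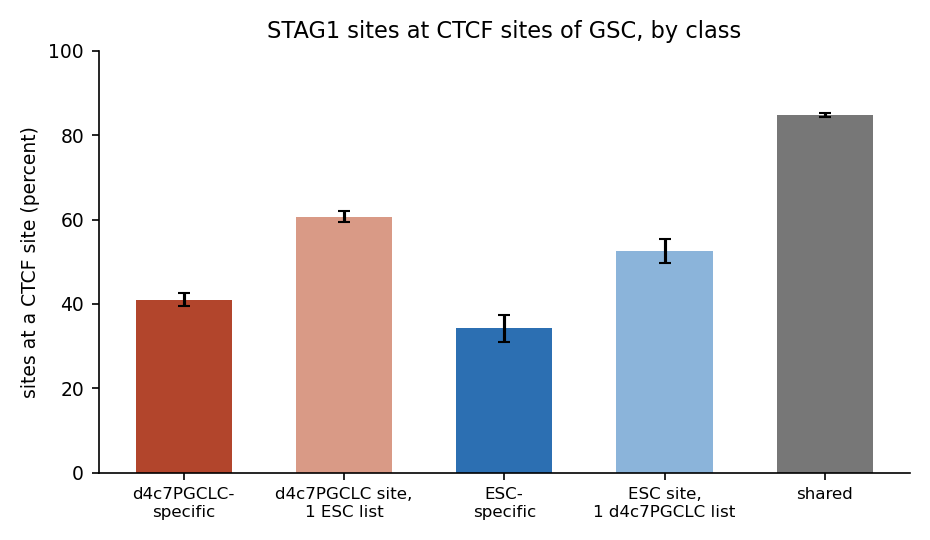
Percent of STAG1 sites of each class that overlap a CTCF site called in all 4 mutant GSC genotypes, with exact binomial 95% intervals. Specific sites (41.0% in d4c7PGCLC and 34.2% in ESC) lie below the sites labelled with 1 list, which meet a peak but no site of the other cell type, and shared sites reach 84.8%.

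Most ESC-specific sites held STAG2 in ESC. Of d4c7PGCLC-specific sites, 1113 (30.3%) had STAG2 in all 3 d4c7PGCLC lists and 985 (26.9%) in none, and many had it in ESC. In the 3 d4c7PGCLC STAG2 lists, 68.3%, 40.4% and 43.5% of d4c7PGCLC-specific sites had a STAG2 peak, and in the 2 ESC lists 70.9% and 70.0%. Thus STAG2 was called at 2318 of the 3668 sites (63.2%) in both ESC lists, although neither ESC STAG1 list had a peak there. At ESC-specific sites STAG2 was called in 26.9%, 11.4% and 13.5% in the d4c7PGCLC lists and in 89.8% and 88.7% in the ESC lists. By site, 552 of 869 ESC-specific sites (63.5%) had STAG2 in ESC and in no d4c7PGCLC list, while 386 of 3668 d4c7PGCLC-specific sites (10.5%) had STAG2 in d4c7PGCLC and in no ESC list. At shared sites STAG2 was called in 95.4%, 85.6% and 87.4% in d4c7PGCLC and in 99.5% in each ESC list.

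The ESC STAG2 lists are long, with 72729 and 73195 peaks against 53988, 35799 and 37236 in d4c7PGCLC, and a longer list meets more sites of any class. Within each STAG2 list the share at ESC-specific sites was therefore taken from the share at d4c7PGCLC-specific sites. That within-list difference was 41.3, 29.0 and 30.0 points in the d4c7PGCLC lists and between −18.9 and 10.7 points in the other 10 lists, which it did not overlap. It averaged 33.4 ± 6.85 points in d4c7PGCLC (SD, n = 3) and −0.573 ± 11.2 in the rest (SD, n = 10). The 34.0 points between them gave the smallest p that the permutations can give (two-sided exact permutation p = 0.00699, Benjamini-Hochberg 0.0559 over 8 tests). Alone, even that smallest p cannot pass over 8 tests, so no conclusion is drawn from its not passing. With every STAG2 list reduced to the 13698 peaks of the shortest, the 34.0 points came to 1.29 points (exact permutation p = 0.552). In the ESC and d4c7PGCLC lists that cut drops most STAG2 peaks at both specific classes, whose median ranks were 41.9% to 76.1% of the list. Differences between the classes shrink with their loss, so the cut cannot tell whether list length made the 34.0 points. In the ESC lists the within-list difference was −18.9 and −18.8 points. It lay −30.9 points from that of the 11 others (exact permutation, two-sided, p = 0.0256, the smallest possible, adjusted 0.103). Between d4c7PGCLC and ESC lists alone the difference was 52.3 points (exact permutation, two-sided, p = 0.20, again the smallest of this design, adjusted 0.400). These came to −6.20 and 6.23 points with STAG2 lists of equal length, and to −14.4 (exact permutation p = 0.128) and 33.3 points without ESC STAG1 replicate 1. The plain STAG2 share of d4c7PGCLC-specific sites was 0.292 points higher in d4c7PGCLC lists than in the others (exact permutation p = 1.00). That of ESC-specific sites was 54.4 points higher in ESC lists than in the others (exact permutation p = 0.154, adjusted 0.400), or 2.21 points with STAG2 lists of equal length. None of the 8 tests passed, and 2 of them had an unadjusted p under 0.05. Neither of these 2 could pass alone over 8 tests, since each already had its smallest possible p. The test between d4c7PGCLC and ESC lists and those of whole STAG1 lists could not pass at all. Their smallest possible p lay above 0.05.

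Along the stages from stem cell to germline stem cell, the within-list difference was −18.9 and −18.8 points in ESC, −5.71 and −6.38 in EpiLC, 6.08, 7.49 and 4.82 in d2PGCLC, 41.3, 29.0 and 30.0 in d4c7PGCLC, and 9.74, 5.22 and 10.7 in GSC. EpiLC STAG2 lists met 84.6% and 83.7% of d4c7PGCLC-specific sites and 90.3% and 90.1% of ESC-specific sites, with 84904 and 82994 peaks, the longest lists of the 13. STAG2 peaks at d4c7PGCLC-specific sites stood at the middle of the ESC STAG2 lists by fold enrichment, with a median rank of 53.9% and 53.2% of the list, and at 54.4%, 67.0% and 64.9% in d4c7PGCLC. At ESC-specific sites the median rank was 68.4%, 74.4% and 76.1% in the d4c7PGCLC lists, against 44.0% and 41.9% in the ESC lists. STAG2 peaks at shared sites stood higher in all 5 lists, at 18.3% to 32.6%.

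**Figure D4:**
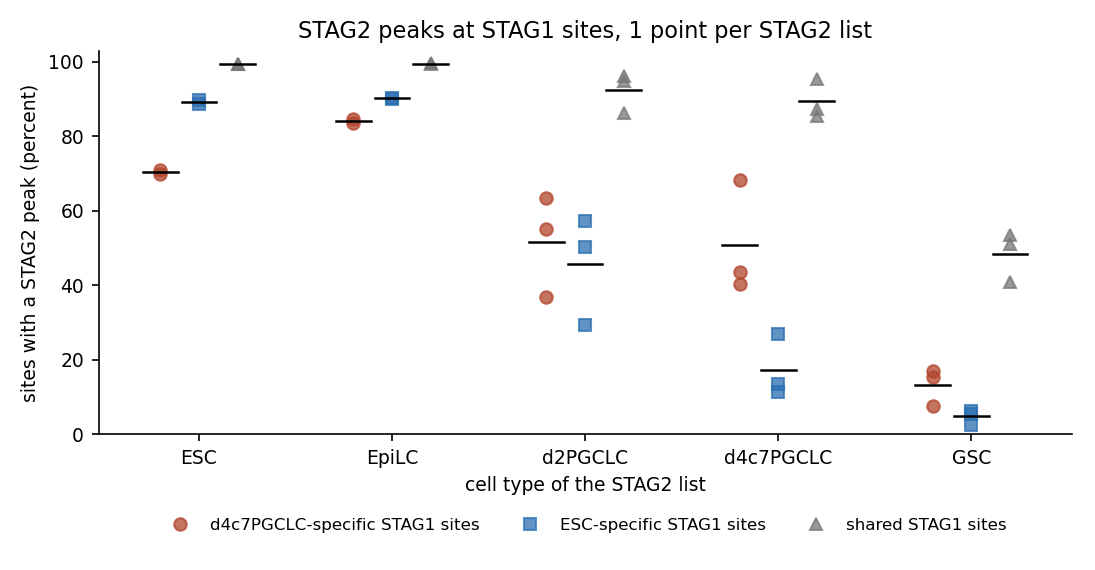
Percent of d4c7PGCLC-specific (red circles), ESC-specific (blue squares) and shared (grey triangles) STAG1 sites with a STAG2 peak, 1 point per STAG2 list and a line at the mean, in stage order. In the d4c7PGCLC lists 40.4% to 68.3% of d4c7PGCLC-specific and 11.4% to 26.9% of ESC-specific sites had STAG2, while in the ESC lists the red points lie below the blue ones.

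A STAG1 peak of EpiLC, d2PGCLC or GSC met 1191 of 3668 d4c7PGCLC-specific sites (32.5%) and 364 of 869 ESC-specific sites (41.9%). At d4c7PGCLC-specific sites the 2 STAG1 lists gave 1.01% and 10.0% in EpiLC, 8.67% and 17.9% in d2PGCLC and 5.89% and 7.17% in GSC. At ESC-specific sites they gave 5.87% and 27.2% in EpiLC, 9.21% and 21.2% in d2PGCLC and 1.96% and 2.19% in GSC. STAG3 was called in GSC in 6.22% to 18.3% of d4c7PGCLC-specific and 2.88% to 10.2% of ESC-specific sites over its 3 lists. A STAG3 peak in any of them met 808 d4c7PGCLC-specific sites, of which 72.5% lay at CTCF sites, and 108 ESC-specific sites, of which 64.8% did. In GSC, STAG1 met 15.5% of the d4c7PGCLC-specific sites at CTCF sites and 0.231% of those outside them (means of 2 lists). No STAG1 or STAG2 peak of any other cell type met 165 of the d4c7PGCLC-specific sites (4.50%) and 27 of the ESC-specific sites (3.11%).

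Specific sites differed from shared ones by at most a few points in their shares at gene ends and in gene bodies. Within 2500 bases of either end of a protein-coding gene lay 16.3% of d4c7PGCLC-specific sites (exact binomial 95% interval 15.1 to 17.6) and 19.6% of ESC-specific sites (17 to 22.4), against 19% of shared sites. In gene bodies lay 53.1% of d4c7PGCLC-specific, 54.0% of ESC-specific and 48.6% of shared sites. On chromosome X lay 2.24%, 1.73% and 1.93% in the same order. The distance to the nearest shared site had a median of 27.6 kb for d4c7PGCLC-specific sites and of 14.2 kb for ESC-specific sites. Within 10 kb of a shared site lay 23.2% of the d4c7PGCLC-specific and 41.3% of the ESC-specific sites, while 37.5% of shared sites had another shared site as near. Over whole lists the gene-end share differed by −0.253 points and the X share by 0.0754 points between d4c7PGCLC and ESC (two-sided exact permutation p = 1.00 each).

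Of 21887 protein-coding genes, 692 (3.16%) had a d4c7PGCLC-specific site at an end and 217 (0.991%) an ESC-specific site. A shared site lay at an end of 4911 genes (22.4%). Genes with sites of both specific classes at their ends numbered 4, and 165 of the 692 and 77 of the 217 also had a shared site there. The lists below were read against these shares as descriptions.

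Of 81 ribosomal protein genes, which encode parts of the translation machinery, 9 (11.1%) had a d4c7PGCLC-specific site at an end, beside 3.16% of all genes, and 0 had an ESC-specific site. Shared sites were at 18 of 81 (22.2%), near the share of all genes. The genes with a d4c7PGCLC-specific site included Rpl13a, Rpl24, Rpl26, Rpl3, Rpl5, Rps15, Rps26 and Rps4x, and at Rpl5, Rpl26 and Rps4x the site lay in the promoter window printed above. Folds at their 10 sites were 3.26 to 7.34 in replicate 1 and 3.29 to 8.95 in replicate 2. Of the 10 sites 9 lay at CTCF sites, 8 had STAG2 in both ESC lists and 6 in all 3 d4c7PGCLC lists. With lists of equal length, 6 of 81 genes (7.41%) had such a site against 1.50% of all genes, and 0 of 81 an ESC-specific one. Leaving out 1 STAG1 list in turn gave 11 to 18 of 81 genes, where 3.50% to 8.48% of all genes had one, and 1 to 3 of 81 with an ESC-specific site.

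Clustered protocadherins, neuronal adhesion genes in 3 tandem clusters whose promoters bind CTCF and cohesin, rested on few sites. Of 57 genes, 22 (38.6%) had an ESC-specific site at an end, beside 0.991% of all genes. A d4c7PGCLC-specific site was at 1 (1.75%), beside 3.16% of all genes. The 22 genes hold only 2 sites, since the 21 genes of the gamma cluster named Pcdhga, Pcdhgb and Pcdhgc share their last exons. That site, at chr18:37841335-37841708, had folds of 8.85 and 5.91 in ESC, lay at a CTCF site and had STAG2 in 2 of 3 d4c7PGCLC lists and in both ESC lists. The other, at Pcdhb20 (chr18:37506425-37506748), had 4.39 and 4.51. The d4c7PGCLC-specific site lay at Pcdhb22 (chr18:37520265-37520797), with 5.35 and 7.20. Shared sites were at 45 of the 57 genes. Without d4c7PGCLC replicate 2, 22 of the 57 also had a d4c7PGCLC-specific site at an end, beside 5.98% of all genes.

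Germ cell genes are given here beside the 3.16% and 0.991% of all genes with a d4c7PGCLC-specific and an ESC-specific site. Of 15 early germ cell genes, 2 (13.3%), Dppa3, also called Stella, and Nanos3, an RNA-binding protein gene needed for germ cell survival, had a d4c7PGCLC-specific site and 0 an ESC-specific one. Leaving out 1 STAG1 list in turn gave 2 to 6 of the 15 with a d4c7PGCLC-specific site, where 3.50% to 8.48% of all genes had one. With lists of equal length 2 of the 15 (13.3%) had such a site, beside 1.50% of all genes. These were not the same 2 genes, since Dppa3 then had no d4c7PGCLC-specific site. The Nanos3 site, at chr8:84173934-84174243, had folds of 8.99 and 4.12 and STAG2 in 2 of 3 d4c7PGCLC and in both ESC lists. Its peak ranked 38980 in replicate 2, too low to be kept in the lists of equal length. Of 23 meiotic genes, 3 (13%) had a d4c7PGCLC-specific site: Bhmg1, also called Meiosin and needed for entry into meiosis, Dmc1, the meiotic recombinase, and Ctcfl, the germline relative of CTCF. Their folds were 6.42 and 4.48, 5.10 and 5.92, and 4.59 and 4.72, and 0 of the 23 had one with lists of equal length. Of 24 germline genes known to be held silent by DNA methylation, Tex19.1 and Tuba3a (8.33%) had a d4c7PGCLC-specific site, and 0 had one with lists of equal length. Dazl, which encodes a germ cell RNA-binding protein, was the only one with an ESC-specific site, at chr17:50291500-50292074. It had folds of 12.8 and 7.54 in ESC, and STAG2 was called there in all 3 d4c7PGCLC lists as well as in both ESC lists.

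Of 16 naive pluripotency genes, Dppa3 alone (6.25%) had a specific site, and of 10 core pluripotency and 14 formative genes 0 had one of either class. Lists of this size cannot be told from the 3.16% of all genes by such counts. Without d4c7PGCLC replicate 1, 3 of the 10 core and 4 of the 14 formative genes had a d4c7PGCLC-specific site, beside 7.05% of all genes. Without ESC replicate 2, 2 of the 10 core and 4 of the 14 formative genes had an ESC-specific site, beside 5.39% of all genes. Hox genes had shared sites at 18 of 39 (46.2%), beside 22.4% of all genes, and specific sites at 0. Of 26 signalling genes, 3 (11.5%), Bmp4, the inducer of germ cell fate, its receptor gene Bmpr1a and Fgfr2 had d4c7PGCLC-specific sites, with folds of 5.35 and 4.67, 5.00 and 6.81, and 4.68 and 5.05. Lhx1 of 12 mesendoderm genes and Olig2 of 13 neural genes had one each. Ezh1 was the only one of 16 Polycomb genes with a specific site, in ESC, with folds of 4.59 and 6.82 in its promoter. With lists of equal length, 0 signalling, mesendoderm and neural genes had a d4c7PGCLC-specific site and 0 Polycomb genes an ESC-specific one. An ESC-specific site then lay at 2 of the 12 mesendoderm genes (16.7%) and 1 of the 26 signalling genes (3.85%), beside 1.90% of all genes. Imprinted genes (26), DNA methylation genes (12) and fibroblast genes (12) had 0 of either class in the full lists. With lists of equal length, 2 of the 26 imprinted genes (7.69%) had a d4c7PGCLC-specific site, beside 1.50% of all genes, and 1 of the 12 fibroblast genes an ESC-specific one. Of 1106 olfactory receptor genes, 6 (0.542%) had a d4c7PGCLC-specific and 2 (0.181%) an ESC-specific site, below the 3.16% and 0.991% of all genes. Genes with Zfp symbols, most of them zinc finger factors, had 18 (4.90%) and 2 (0.545%) among 367. With lists of equal length they had 6 (1.63%) and 5 (1.36%), beside 1.50% and 1.90% of all genes. Zfp541, a factor of male meiosis, was 1 of the 18.

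**Figure D5:**
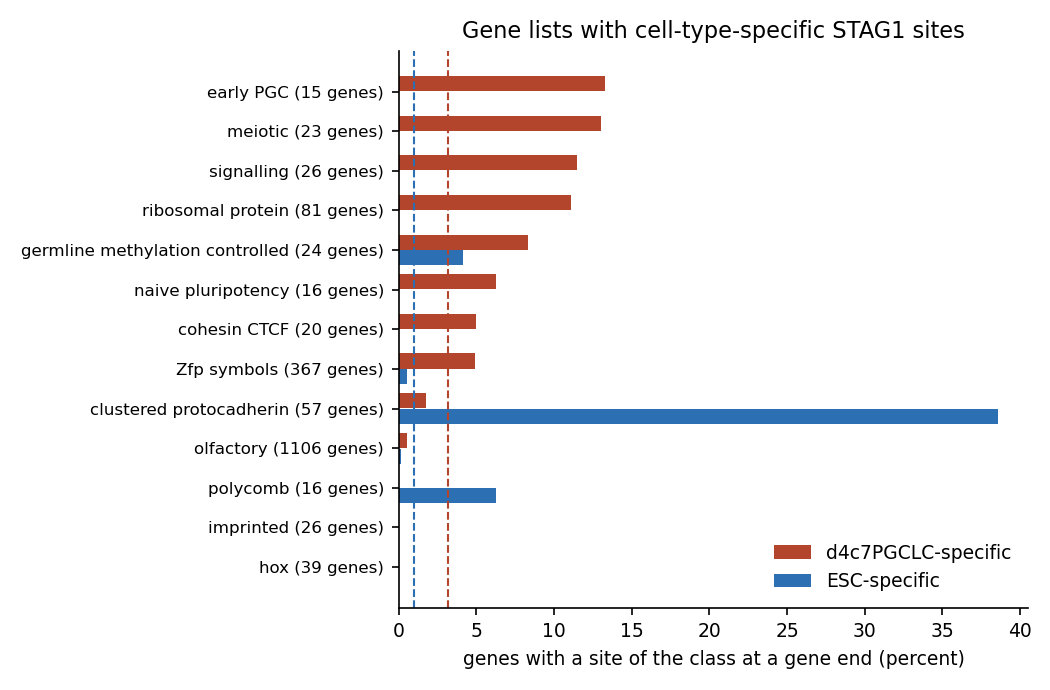
Percent of genes of each list with 15 or more genes that have a d4c7PGCLC-specific (red) or ESC-specific (blue) STAG1 site within 2500 bases of an end, with dashed lines at the shares of all protein-coding genes (3.16% and 0.991%). Ribosomal protein genes hold 9 with a d4c7PGCLC-specific site, and the 22 protocadherin genes rest on 2 sites.

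The genes of cohesin and CTCF themselves were mostly alike. Stag2 and Ctcf had 1 STAG1 peak at an end in every list of both cell types. Across the body of Stag1 lay 5 and 5 STAG1 peaks in d4c7PGCLC, against 3 and 1 in ESC. In Stag3 there were 0 and 0 in d4c7PGCLC, against 1 and 2 in ESC. Rad21, which encodes the ring subunit cleaved at anaphase, had 0 and 1 at an end in d4c7PGCLC and 0 and 0 in ESC. Counts so small do not separate the cell types.

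In bins of 200 kb, the densest group of d4c7PGCLC-specific sites was at chr2:11400001-11600000, with 6 sites beside 4 shared ones around Pfkfb3, a regulator of glycolysis, and Rbm17, a splicing gene. Bins with 5 lay at chr12:113000001-113200000, which holds Brf1, Pacs2 and Crip1 among 9 genes, at chr15:97000001-97200000 with the amino acid transporter gene Slc38a4, and at chr17:49200001-49400000, where no protein-coding gene is annotated. A bin at chr6:122600001-122800000 also held 5, beside 11 shared sites. It spans Apobec1, Gdf3, Dppa3, Nanog and Slc2a3, a block of genes active in pluripotent and germ cells. None of these 5 lay at a CTCF site, whereas 8 of the 11 shared sites did. Of ESC-specific sites, 4 lay at chr10:127400001-127600000 around Shmt2 and Lrp1, and 4 at chr11:100200001-100400000 among keratin genes such as Krt14 and Krt17. Groups of 3 lay at chr5:115400001-115600000 with Msi1, at chr7:24400001-24600000 with Xrcc1 and at chr5:94600001-94800000 among Pramel genes, a tandem family expressed in early embryos and the germline. The last of these had 0 shared sites.

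At Dppa3 the d4c7PGCLC-specific site, chr6:122625312-122625655, had folds of 1.86 and 2.16, near the foot of both lists. With lists of equal length Dppa3 had no d4c7PGCLC-specific site. STAG2 was called there in 3 of 3 d4c7PGCLC lists and in 0 of the lists of ESC, EpiLC, d2PGCLC and GSC, and no CTCF peak was. A shared site beside it, chr6:122627306-122628319, had folds of 2.33 and 2.11 in d4c7PGCLC and of 2.35 and 2.23 in ESC, with STAG2 in 3 of 3 d4c7PGCLC and both ESC lists. A further d4c7PGCLC-specific site at chr6:122611623-122612256 had 2.17 and 1.63, while those at chr6:122683055-122683322, chr6:122702342-122702887 and chr6:122761150-122761470 had 5.22 and 4.42, 4.79 and 3.03, and 4.22 and 4.55. Both cell types carry the Stella-ECFP reporter, which is named after this gene, and the lists do not give the read depth at the locus, so its part in these low folds was not tested.

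The genes with most d4c7PGCLC-specific sites in their body and ends were mostly long. Sdk1, a synaptic adhesion gene of 974 kb, and Tenm2, a teneurin gene of 1230 kb, had 6 each, Cdh13, a cadherin gene of 1185 kb, and Fry had 5 each, and Glt1d1 had 4. Of the genes tied with Glt1d1, which were looked at after their values were seen, Notch2 had 4 in 137 kb with 0 shared sites, and one of these lay in its promoter at chr3:98013351-98013861 with folds of 4.28 and 4.28. ESC-specific sites were most numerous in Ctnnd2, a neuronal catenin gene, and Dpp6, a potassium channel subunit gene, with 3 each. Anks1b, B4galnt3 and Clmp followed with 2 each, as did other genes.

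By chromosome, d4c7PGCLC-specific sites made up between 8.34% (chromosome 4) and 12% (chromosome 8) of d4c7PGCLC sites. With lists of equal length this share ran from 5.71% on chromosome 11 to 10.5% on X. Without ESC replicate 1 it ran from 22.3% on chromosome 11 to 33.9% on X. With the full lists (10.7%) and in the other list settings, X stood within the range of the other chromosomes. ESC-specific sites ran between 1.90% on chromosome 6 and 5.84% on chromosome 12, where 68 of 1165 ESC sites were specific. Of these 68, 20 lay between 17 and 25 Mb, an interval picked after the values were seen that holds 56 annotated genes. The d4c7PGCLC-specific sites there numbered 8 and the shared ones 85. Of the 20 sites 11 lay at CTCF sites, 5 had STAG2 in a d4c7PGCLC list and 19 in an ESC list. Per 10000 peaks, the interval held 29.4 and 31.2 STAG1 peaks in d4c7PGCLC against 45.1 and 42.1 in ESC. It held 26.1, 25.7 and 24.7 STAG2 peaks in d4c7PGCLC against 33.4 and 33.9 in ESC. The STAG1 values come from the lists that chose the interval and are a description. EpiLC and d2PGCLC STAG1 lists had 24.5, 28.0, 21.0 and 20.9 there. With lists of equal length, chromosome 12 again had the highest share of ESC-specific sites, 11.2% of 1067.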

How the data were processed

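The peak lists were deposited by the authors for each ChIP-seq library in the narrowPeak format of MACS2. Column 7 holds the fold enrichment over control as a ratio, column 8 and column 9 hold −log10 of the p-value and q-value, column 5 a score, and all are the authors' values. Per the submitters' processing notes, the tools were Bowtie2 2.3.4.1, MACS2, bedtools 2.29.2, cutadapt 1.9.1 under Trim Galore 0.4.1, and SAMtools 1.7, and the builds GRCm38.p3 and mm10 are named. For the settings of the peak caller and the library depths, no source used here gives a value.

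Peaks on the 19 autosomes, X and Y were used, in mm10 coordinates counted from 1. Intervals overlapped if they shared 1 base. A CTCF site was a merged CTCF interval met by the lists of all 4 mutant GSC genotypes. Gene ends and promoter windows came from RefSeq tables of GRCm38.p6. Genes of 19 lists were matched by symbol or synonym (1870 genes). The members and lists were chosen with earlier results of these data known. Values of STAG2 lists were compared by exact permutation of lists, with Benjamini-Hochberg adjustment over 8 tests and a threshold of 0.05. Site classes were checked on simulated intervals of known class. Named sites were the 8 best ranked by the worse of their ranks in the 2 lists of a cell type (5 outside CTCF sites), list genes with a specific site (1 is not reported here by name), and the 5 bins and 5 genes with most sites. Summit windows outside promoters were planned but not read, since no genome was used. Alternatives comprised other thresholds, overlaps, windows and list lengths, and each list left out. Samples with the same replicate number did not deviate together (correlation −0.00977 over 50060 intervals). Python 3.11.15, numpy 2.4.6, pandas 2.3.3, SciPy 1.17.1 and matplotlib 3.10.9 were used.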

Additional observations from a re-analysis of the deposited data

How the results depend on the processing

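Depth is unknown for these lists, so list length stands in for it, and a site not called in one cell type may lie just under the threshold there. With the 4 STAG1 lists at equal length, 1837 sites were d4c7PGCLC-specific and 1725 ESC-specific, and their CTCF shares were 58.6% and 49.6%, against 87.9% of shared sites. The CTCF share of whole lists then differed by 1.40 points. With sites called in either list, the counts were 10037 and 4992, the CTCF shares 29.5%, 24.3% and 76.7% (shared), and the gene-end shares 19.1% and 23.1%. CTCF sites of any genotype gave 53.2%, 48.6% and 91.8%. A gene window of 1000 bases gave gene-end shares of 10.0% and 10.7% and a list difference of 0.124 points. Promoter windows, an alternative chosen after seeing the data, gave 4.85% and 4.14% and 0.209 points. The STAG2 share at d4c7PGCLC-specific sites, d4c7PGCLC lists minus the others, was 0.292 points and turned to −1.97 with a stricter q, −3.65 with sites called in either list, −0.972 with STAG2 lists of equal length and −15.6 without the GSC lists. The gene list counts and chromosome shares under other list settings, given with those results, were likewise added after seeing the data.

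With each list left out in turn, the d4c7PGCLC-specific count ran from 4019 to 8885 and the ESC-specific count from 1242 to 4437. Their CTCF shares ran from 32.1% to 52.4% and from 25% to 44.3%, and that of shared sites from 80.7% to 84.5%. Their gene-end shares ran from 16.4% to 19.9% and from 18.7% to 23.8%. The STAG2 share difference at d4c7PGCLC-specific sites ran from −8.49 to 5.46 points. The list differences ran from −0.826 to 0.320 points at gene ends and from −0.136 to 0.287 points on chromosome X. With the replicate number as a block, the within-list difference between d4c7PGCLC and ESC lists was 54.0 points over the 2 shared numbers (exact p = 0.500) and no call changed. The samples share only a number. Over all results and alternatives, 123 values kept their direction and their side of the threshold or stayed near the reported value, 39 moved further and 15 changed sign. The first group includes the within-list differences, which shrank with STAG2 lists of equal length (1.29, −6.20 and 6.23 points). That cut drops most STAG2 peaks at specific sites in the ESC and d4c7PGCLC lists. With each list left out, these ran from 26.3 to 36.3 points (d4c7PGCLC against the others), −30.9 to −14.4 (ESC against the others) and 33.3 to 54.5 (d4c7PGCLC against ESC).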
